A study of Glycine max with 16 samples.

Results

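The comparison sets leaves taken at 17:00 (ZT11:20), late in the light period, against leaves taken at 11:00 (ZT5:20), late in the morning, in field-grown soybean (Glycine max). It uses 8 of the 16 libraries of the series: the 4 libraries labelled 17:00 against the 4 libraries labelled 11:00, 1 from each of 4 field plots at each time. The libraries labelled 8:00 and 14:00 serve only to place these values in the day and to estimate the spread. All plants were cultivar 93B15, a commercial variety, untreated as far as the labels state, and were in seed fill. Each library held the leaflets of 1 leaf from the top of the canopy, so that 1 library stands for 1 leaf in 1 plot. Both times of a plot fell on 1 day and each plot had a day of its own, so plot and day cannot be told apart. The question is which transcripts in a mature leaf differ between late morning and the hours before dusk.

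In plants the circadian clock is a set of transcription factors that repress one another in turn. LHY/CCA1-type MYB factors are made around dawn and repress genes of the evening; pseudo-response regulators follow one another through the day; and the evening complex, which holds ELF4 and LUX, forms towards dusk. The clock and light together time transcripts for light harvesting, carbon and nitrogen assimilation and growth in leaves. The transcript level at one hour is not a measure of protein or of enzyme activity.

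Total counts per library ranged from 19335877 to 21705056 at 17:00 and from 14968570 to 25691784 at 11:00. Of 56044 genes in the table, 36059 had 8 or more counts in at least 1 library and were tested. The leaf identity of the libraries was checked on chlorophyll a/b binding transcripts, the light-harvesting antenna of the chloroplast, whose 13 loci summed to between 4926 and 12161 CPM at 17:00 and between 11078 and 23253 CPM at 11:00. CPM here is the count in units of 1000000 counts per library after scaling by the trimmed mean of M-values (TMM). Plot 4 stood apart: among 14772 genes with a mean of at least 10 CPM, it was the plot farthest from the median of its time point at both times in 16.0% of genes, against 3.54% to 5.56% for each of the other plots. In whole leaves, a lower transcript level per cell and fewer cells of the type that makes it cannot be told apart. For 115 genes followed in fits with 1 plot left out, calls that ended are given with the value without that plot. Named genes outside the 115 were not followed in this way, so the lack of such a value says nothing of them.

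Transcript abundance changed widely between the late morning and the late afternoon. By the edgeR quasi-likelihood test with plot in the model, 3189 genes were higher and 3070 lower at 17:00 than at 11:00 (called where the log2 fold change was 1 or more in size and the adjusted p below 0.05), which is 8.84% and 8.51% of the genes tested and 17.4% together. Of the genes that were higher, 3058 moved the same way in all 4 plots, as did 2981 of those that were lower. The values of the 2 times did not overlap for 27.7% of all genes tested. A log2 fold change of 2 in size was passed by 867 rises and 1165 falls, one of 4 by 121 rises and 165 falls, and one of 6 by 39 rises and 31 falls. Scaling by total counts alone, in place of TMM, moved the median log2 fold change of all genes to 0.33, against 0.04 with TMM, and the calls to 5217 higher and 2196 lower (70.4% higher, against 51.0% with TMM). Small changes are therefore relative to the scaling, and each gene named as changed below kept its direction under both.

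**Figure D1:**
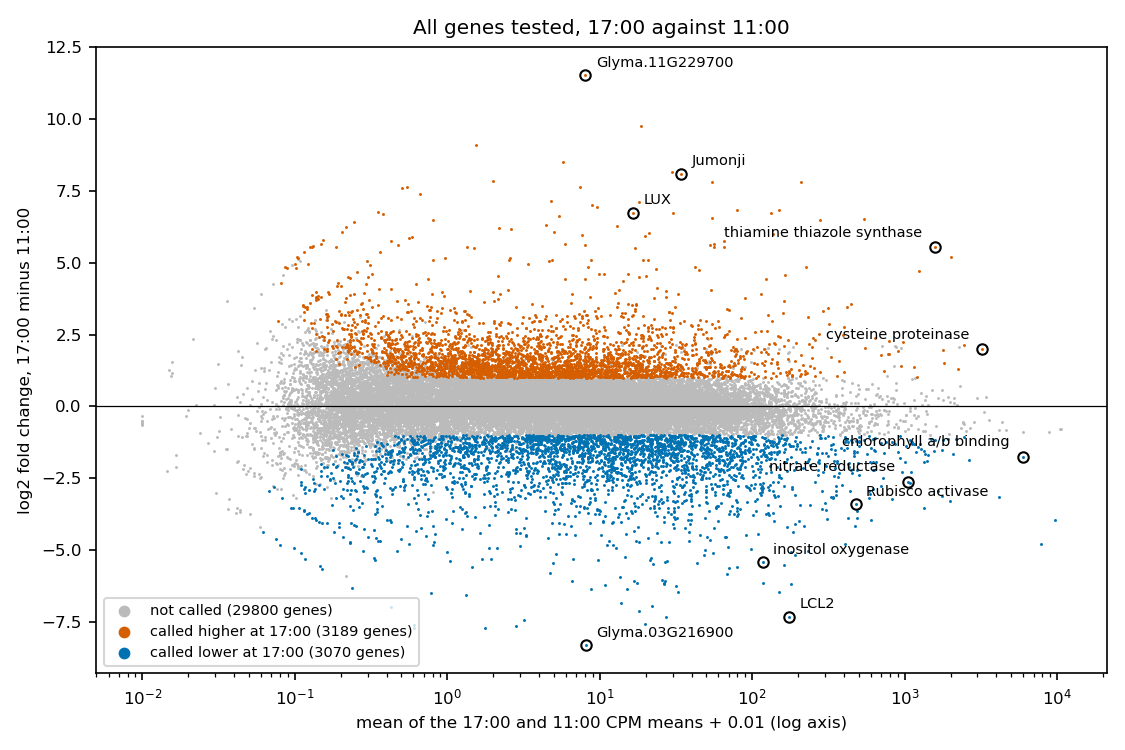
Each point is 1 of 36059 genes, with the mean of its 17:00 and 11:00 CPM means, plus 0.01, on a log axis and the fitted log2 fold change (17:00 minus 11:00) on the vertical axis. The 3189 genes called higher are orange, the 3070 called lower are blue and the 29800 not called are grey; the fitted value of Glyma.11G229700, which had no count at 11:00, depends on the prior count and is not a measured fold.

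The most abundant transcripts fell more often than they rose. Among 149 genes with a mean of at least 1000 CPM at either time, 55 were lower and 20 higher at 17:00. With total-count scaling the counts were 42 and 26. Together 50.3% of the 149 were called, against 17.4% of all genes. A gene could enter through the 1 time at which it was high, which favours changed genes. The 50.3% is therefore not read as a trait of abundant transcripts. The pair of genes that were most abundant at 11:00 among the falls, picked after their values were seen and with no name in the sources used, averaged 1129 ± 195 and 539 ± 118 CPM at 17:00, against 18158 ± 6327 and 15099 ± 4133 CPM at 11:00. Their log2 fold changes were -3.95 (SE 0.21, adjusted p = 7.82e-09, edgeR) and -4.78 (SE 0.22, adjusted p = 3.20e-09, edgeR).

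Clock genes held some of the largest changes in both directions. Of 12 clock loci, 5 were higher and 3 lower at 17:00 and 4 did not pass the test, and these counts were unchanged with any 1 plot left out. That is 66.7% called, against 17.4% of all genes. The study names these clock genes and had reported most of them as changing over the day in these libraries. Their count is therefore no independent evidence. Values of single libraries are given in the order of plots 1 to 4, and means are over these 4 plots with their SD. The morning MYB factor LCL2 (Glyma.03G261800) had 3.46, 1.97, 2.34 and 1.19 CPM at 17:00, against 303, 413, 374 and 289 CPM at 11:00. It fell in every plot (log2 fold change -7.31, SE 0.29, adjusted p = 1.52e-09, edgeR), and its highest library at 17:00 lay far below its lowest at 11:00. Its relative LCL1 (Glyma.07G048500) had 21.4, 11, 21.5 and 12.4 CPM at 17:00, against 206, 338, 291 and 218 CPM at 11:00. LCL1 fell as well (log2 fold change -3.98, SE 0.28, adjusted p = 1.02e-07, edgeR), and its lowest library at 17:00 still had 11 CPM; the difference between the folds of LCL1 and LCL2 was not tested.

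The evening complex genes and Jumonji, a clock-associated gene of the Jumonji-domain family, were near the limit of detection at 11:00 and present at 17:00. LUX (Glyma.12G060200), a MYB-type DNA-binding component of the evening complex, had 30.3, 22.7, 34.5 and 44.1 CPM at 17:00, against 0.367, 0.278, 0.469 and 0.18 CPM at 11:00. ELF4 (Glyma.18G027500), a small component of the same complex, had 7.63, 4.72, 12.4 and 17.7 CPM at 17:00, against 0.294, 0.111, 0 and 0.0722 CPM at 11:00. Neither gene's groups overlapped, and their log2 fold changes were 6.74 (SE 0.46, adjusted p = 7.96e-08, edgeR) and 6.61 (SE 0.49, adjusted p = 2.01e-07, edgeR). At 14:00 LUX averaged 3.42 CPM, while ELF4 was still at 0.118 CPM. Jumonji (Glyma.11G130600) had 79.5, 79.1, 76.3 and 38.2 CPM at 17:00, against 0.367, 0.111, 0.156 and 0.361 CPM at 11:00. Its rise was the largest of the clock loci (log2 fold change 8.10, SE 0.62, adjusted p = 2.48e-07, edgeR), and plot 4 had the lowest value of the 4 at 17:00.

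The pseudo-response regulators, which act one after another as repressors of the morning genes, did not move together. TOC1 (Glyma.04G166300), the regulator of the evening, had 58.2, 32.8, 61.3 and 49.4 CPM at 17:00, against 10.9, 6.61, 7.09 and 4.91 CPM at 11:00. It rose in all 4 plots with no overlap (log2 fold change 2.77, SE 0.23, adjusted p = 5.41e-07, edgeR). PRR9 (Glyma.06G136600) averaged 86.8 ± 10.6 CPM at 17:00 and 12.4 ± 5.76 CPM at 11:00, and rose (log2 fold change 2.97, SE 0.48, adjusted p = 0.000278, edgeR). Glyma.04G228300, whose best match is the pseudo-response regulator PRR73, averaged 165 ± 31.5 CPM at 17:00 and 14.7 ± 6.76 CPM at 11:00 and rose as well (log2 fold change 3.76, SE 0.54, adjusted p = 0.000107, edgeR). In the opposite direction, PRR5 (Glyma.03G261300) had 10.8, 7.61, 10.5 and 6.48 CPM at 17:00, against 58, 42.6, 46.8 and 34.2 CPM at 11:00, a fall in every plot (log2 fold change -2.37, SE 0.52, adjusted p = 0.00287, edgeR).

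PRR3, PRR7, GIGANTEA and ZEITLUPE did not pass the test. PRR7 (Glyma.10G048100) averaged 117 ± 6.25 CPM at 17:00 and 77.5 ± 20.8 CPM at 11:00 and GIGANTEA (Glyma.20G170000), a regulator of flowering time and of the clock, averaged 122 ± 8.24 CPM at 17:00 and 71.4 ± 26.8 CPM at 11:00. All 4 plots were higher at 17:00 for both, with no overlap, but plot 2 was low at 11:00 in both (47.8 and 32.9 CPM), and the adjusted p was 0.0583 for PRR7 and 0.0889 for GIGANTEA (edgeR). With total-count scaling GIGANTEA passed the test, with a log2 fold change of 1.22 and an adjusted p of 0.0268 (edgeR). PRR3 (Glyma.U034500) averaged 42.5 ± 18.6 CPM at 17:00 and 43.1 ± 16 CPM at 11:00, higher in 2 plots and lower in 2 plots. ZEITLUPE (Glyma.09G056100), which encodes a light-sensing partner of GIGANTEA in protein turnover, averaged 36 ± 5.98 CPM at 17:00 and 44.8 ± 9.0 CPM at 11:00 (log2 fold change -0.30, adjusted p = 0.203, edgeR). Glyma.13G050300, matched to the CONSTANS-like protein CO1 of the photoperiod pathway, had 1.61, 0.0917, 0.681 and 1.87 CPM at 17:00 and no count in any library at 11:00. Set against a floor of 3 counts per library, it was at least 6.53-fold higher at 17:00.

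**Figure D2:**
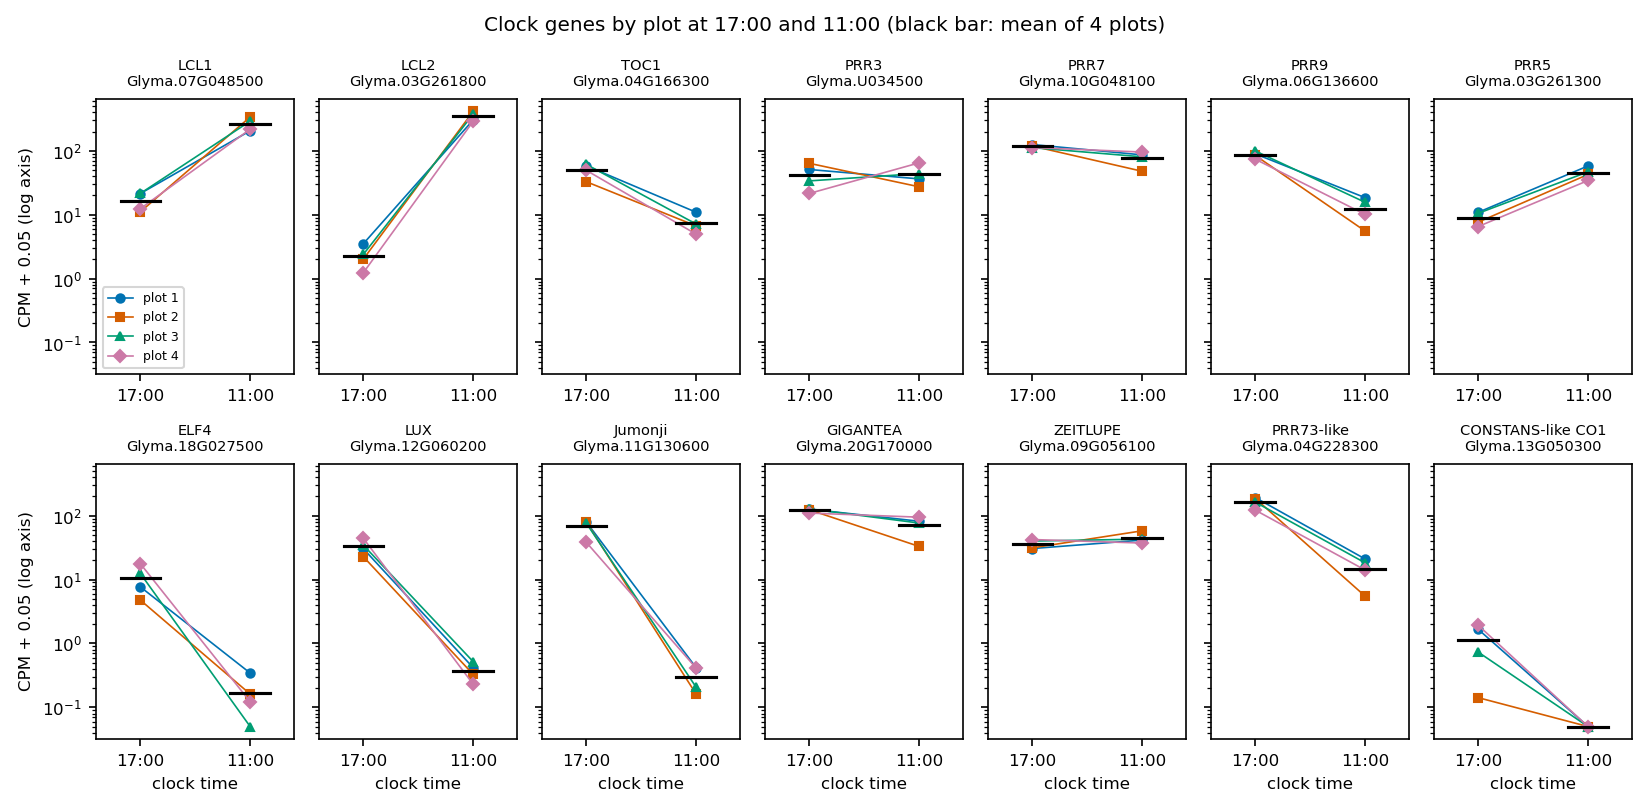
Each panel shows 1 clock-related gene, with CPM + 0.05 on a log axis at 17:00 (left) and 11:00 (right). Coloured markers joined by lines are the 4 plots and black bars are means; LCL1, LCL2 and PRR5 lay lower at 17:00 in all plots, TOC1, PRR9, PRR73-like, ELF4, LUX, Jumonji and CO1 lay higher, and PRR3 crossed between plots.

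A small set of genes was close to absent at 1 time and clearly present at the other. There were 17 genes with a mean under 0.5 CPM at 11:00 and at least 10 CPM at 17:00, and 16 with the reverse. Of the 17, LUX, ELF4 and Jumonji are clock genes. Glyma.17G128000 is matched to malate synthase of the glyoxylate cycle and Glyma.10G274300 to a zinc finger protein. The 17:00 mean of the malate synthase match rests mostly on plot 4, with 63.1 CPM, against 4.56 CPM in the next highest library. At 14:00 only 1 of the 17 had reached a mean of 10 CPM, and 3 were still under 0.5 CPM. Of the 16 genes that were absent late in the day, none was under 0.5 CPM at 14:00 and none had 10 CPM or more there. The member of the 16 with a name is Glyma.20G045800, matched to a hydroxycinnamoyltransferase of phenylpropanoid synthesis, with 0.865, 0.183, 0.426 and 0 CPM at 17:00, against 72.4, 14.2, 12.9 and 20.0 CPM at 11:00 (log2 fold change -6.36, SE 0.81, adjusted p = 3.44e-05, edgeR).

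By the rule of the 10 largest rises and 10 largest falls (called, of 1 sign across the plots, with a mean of 10 CPM or more at either time), the rises ran down to a log2 fold change of 6.99 and the falls to -6.36. They include Jumonji, LCL2 and the hydroxycinnamoyltransferase match, and the sources used pair the others with no name. The largest rise was Glyma.11G229700, with 16.7, 7.1, 16.9 and 23.7 CPM at 17:00 and no count at 11:00, which makes it at least 98.7-fold higher. Glyma.13G357500 came next with 3379 counts over the 17:00 libraries and 3 over the 11:00 libraries, a ratio of 954 after scaling (95% exact binomial interval 326 to 4629, counting error only). The largest fall was Glyma.03G216900, with 0.0393, 0.0458, 0.0426 and 0.0456 CPM at 17:00, against 9.03, 25.7, 16.2 and 13.4 CPM at 11:00, and Glyma.02G250700 averaged 0.199 ± 0.124 CPM at 17:00 and 39.4 ± 16.7 CPM at 11:00. Neither gene's values overlapped between the times.

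The 14:00 libraries show where in the afternoon the changes lay. For the genes that were higher at 17:00, the median share of the log2 change present by 14:00 was 57.5%, and for the genes that were lower it was 40.7%. In the same model, 1064 of the 3189 rises also passed the thresholds from 11:00 to 14:00 and 786 passed from 14:00 to 17:00, against 778 and 1356 of the 3070 falls (5.85% of all genes tested passed between 14:00 and 11:00 and 7.12% between 17:00 and 14:00). These contrasts share the libraries of the comparison and are given side by side, without a test of their difference. A mean at 14:00 beyond the 17:00 level was fitted for 178 rises and 69 falls, and one beyond the 11:00 level for 251 rises and 125 falls. Against 8:00, 2467 of the rises and 2540 of the falls also passed in the same direction at 17:00, a contrast that 28.7% of all genes tested passed and that shares the 17:00 libraries. Between 8:00 and 11:00, 409 of the rises were already rising and 161 were falling at the same thresholds, and of the later falls 436 were falling and 177 rising, where 9.33% of all genes passed and the 11:00 libraries are shared.

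**Figure D3:**
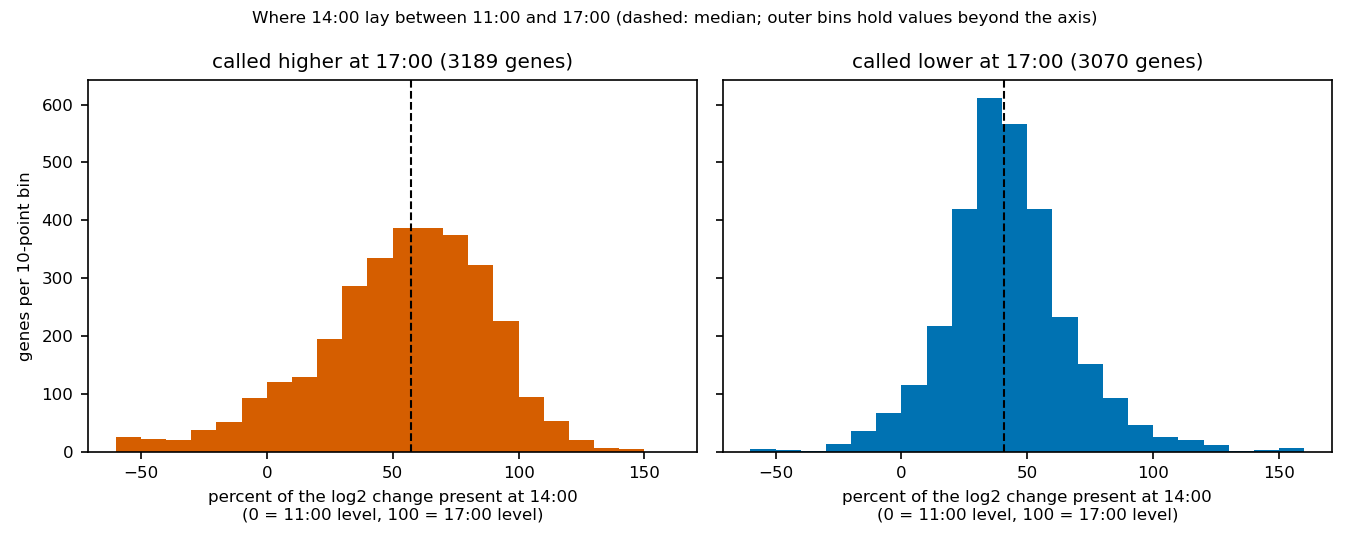
The horizontal axis gives the share of the log2 change from 11:00 to 17:00 that was present at 14:00, and bars count genes in bins of 10 points, for the 3189 genes higher (left) and the 3070 genes lower (right) at 17:00. Values beyond the axis are drawn in its end bins, and dashed lines mark the medians of 57.5% and 40.7%.

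Transcripts for the photosystems, the pigment-protein complexes of the thylakoid, did not move together. Of 4 loci that the study's text names, 3 fell and 1 did not pass; they were picked by the study for their diurnal pattern in these libraries, so that their count is no independent evidence. Psb28 takes part in photosystem II assembly. One of its genes, Glyma.13G127200, had 40.2, 41.6, 56.5 and 27.3 CPM at 17:00, against 198, 231, 200.1 and 122 CPM at 11:00 (log2 fold change -2.19, SE 0.14, adjusted p = 6.64e-08, edgeR). The other, Glyma.10G040600, averaged 21.2 ± 5.65 CPM at 17:00 and 82.9 ± 25.5 CPM at 11:00 (log2 fold change -1.95, SE 0.13, adjusted p = 1.02e-07, edgeR). PsaK (Glyma.09G087700), a subunit of photosystem I next to its antenna, averaged 83.7 ± 29.3 CPM at 17:00 and 204 ± 57.5 CPM at 11:00 (log2 fold change -1.31, SE 0.14, adjusted p = 7.59e-06, edgeR). For all 3 the 17:00 values lay below the 11:00 values with no overlap. The locus listed as PsbD (Glyma.01G153500) averaged 3.09 ± 1.13 CPM at 17:00 and 2.64 ± 0.61 CPM at 11:00 and did not pass (adjusted p = 0.603, edgeR). Per the study, selection of polyadenylated RNA left chloroplast-located Rubisco large subunit genes unmeasured. Neither this locus nor the A apoprotein fragment below is therefore read as a measure of chloroplast-located transcripts. None of the 4 further photosystem I loci in the study's gene table was called. Of these, PsaO (Glyma.12G092000), a small subunit, averaged 44.5 ± 28.9 CPM at 17:00 and 22.8 ± 11.8 CPM at 11:00, higher in all 4 plots but short of the fold threshold (log2 fold change 0.89, SE 0.21, adjusted p = 0.00401, edgeR), and it passed with total-count scaling (1.19). The other PsaO locus (Glyma.11G181100), PsaD (Glyma.10G249000), the docking subunit for ferredoxin, and a fragment matched to the A apoprotein (Glyma.09G144500, under 1 CPM) had log2 fold changes of -0.10, 0.30 and 1.87, each higher in 2 of 4 plots.

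Among 13 chlorophyll a/b binding loci, 3 were lower by the call, none higher and 10 not called (2 to 3 lower and 0 to 1 higher with 1 plot left out), with a median log2 fold change of -0.34 against 0.04 over all genes. That is 23.1% called, near the 17.4% of all genes. Without the fold threshold, which 33.3% of all genes then passed in either direction, 5 were lower and 2 higher. The most abundant locus, Glyma.08G082900, had 3029, 3279, 3294 and 1383 CPM at 17:00, against 9012, 11148, 10630.4 and 5698 CPM at 11:00. It fell in every plot with no overlap (log2 fold change -1.76, SE 0.19, adjusted p = 6.23e-06, edgeR), and plot 4 was lowest at both times. Glyma.13G282000 (log2 fold change -1.59, SE 0.20, adjusted p = 2.89e-05, edgeR) and Glyma.12G219300 (log2 fold change -1.05, SE 0.16, adjusted p = 0.000205, edgeR) fell too, the second short of the fold threshold without plot 4 (-0.99) or with total-count scaling (-0.77). Glyma.05G128000, the next most abundant, averaged 3409.6 ± 1264 CPM at 17:00 and 5796 ± 1722 CPM at 11:00 (log2 fold change -0.81, SE 0.18, adjusted p = 0.00268, edgeR). The other way, Glyma.01G115900 averaged 1474 ± 395 CPM at 17:00 and 749 ± 202 CPM at 11:00 (log2 fold change 0.97, SE 0.20, adjusted p = 0.00184, edgeR), and Glyma.09G154700 averaged 771 ± 285 CPM at 17:00 and 453 ± 169 CPM at 11:00 (log2 fold change 0.77, SE 0.14, adjusted p = 0.000755, edgeR); both were higher in all 4 plots, short of the fold threshold with TMM and past it with total-count scaling, as was the first without plot 1 (1.10). Glyma.16G162600 averaged 16 ± 9.93 CPM at 17:00 and 6.46 ± 4.66 CPM at 11:00 and did not pass with TMM (adjusted p = 0.089, edgeR) but did with total-count scaling. In all 13 loci the lowest library of each time was that of plot 4. All of them but Glyma.01G115900 came from genes that the study marked for high variation among plots. A plot that stands apart is thus partly built into the choice, and the 13 are not a sample of all antenna genes. Near-identical antenna copies can share reads, so the values of single loci are uncertain.

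Genes of carbon fixation behaved in different ways. Rubisco activase (Glyma.14G067000), which frees Rubisco of inhibitory sugar phosphates, had 100.4, 64.2, 73.3 and 82.9 CPM at 17:00, against 752, 1127, 900.0 and 714 CPM at 11:00. It was lower in all plots with a wide gap between the times (log2 fold change -3.40, SE 0.21, adjusted p = 3.60e-08, edgeR), and averaged 308 CPM at 14:00. The 3 loci for Rubisco large subunit binding proteins, chaperonins that help to assemble Rubisco, did not pass the test: Glyma.11G195900 averaged 250.0 ± 72.9 CPM at 17:00 and 290.5 ± 57.6 CPM at 11:00, Glyma.15G250500 averaged 209 ± 34.3 CPM at 17:00 and 231 ± 58.3 CPM at 11:00, and their 14:00 means were 315 and 298 CPM. The third, Glyma.20G019400, averaged 4.61 ± 0.205 CPM at 17:00 and 4.29 ± 0.997 CPM at 11:00. Of 3 electron transport loci annotated with iron ion binding, Glyma.15G018000 rose (38.6 ± 7.69 CPM at 17:00 and 16.7 ± 3.46 CPM at 11:00; log2 fold change 1.20, SE 0.15, adjusted p = 3.84e-05, edgeR), Glyma.17G205000 fell (16.3 ± 4.93 CPM at 17:00 and 40.6 ± 3.57 CPM at 11:00; log2 fold change -1.35, SE 0.15, adjusted p = 1.26e-05, edgeR) and Glyma.14G128500 fell at a low level (0.0974 ± 0.10 CPM at 17:00 and 1.35 ± 0.714 CPM at 11:00; log2 fold change -3.80, SE 0.68, adjusted p = 0.000679, edgeR).

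Of the 4 loci of chlorophyll synthesis followed here, the 3 early ones rose and the 1 late one fell. The study reported genes of these enzymes as changing over the day in these libraries, so their count is no independent evidence. They do not stand for all early and late steps. Per the study, genes of the early enzyme glutamyl-tRNA reductase were much lower at 17:00 than at 8:00. Genes of the later Mg-protoporphyrin IX methyltransferase and protochlorophyllide oxidoreductase were highest at 17:00. The early loci, whose enzymes build the tetrapyrrole ring shared by chlorophyll and heme, were higher at 17:00. Porphobilinogen deaminase (Glyma.11G094700) averaged 30.3 ± 6.16 CPM at 17:00 and 14.5 ± 1.55 CPM at 11:00 (log2 fold change 1.03, SE 0.16, adjusted p = 0.000181, edgeR), uroporphyrinogen III synthase (Glyma.06G037300) averaged 7.97 ± 1.85 CPM at 17:00 and 3.26 ± 0.38 CPM at 11:00 (log2 fold change 1.29, SE 0.23, adjusted p = 0.0006, edgeR), and coproporphyrinogen III oxidase (Glyma.04G192800) averaged 14.6 ± 0.924 CPM at 17:00 and 6.95 ± 2.04 CPM at 11:00 (log2 fold change 1.11, SE 0.23, adjusted p = 0.00178, edgeR). All 3 had no overlap between the times, but the folds are close to the threshold: the deaminase had 0.89 without plot 2 and 0.85 without plot 3, and the oxidase 0.99 without plot 3. The late gene divinyl chlorophyllide reductase (Glyma.13G215400) had 2.79, 2.98, 3.87 and 2.46 CPM at 17:00, against 39.1, 67.6, 46.5 and 25.6 CPM at 11:00 and fell (log2 fold change -3.82, SE 0.24, adjusted p = 4.67e-08, edgeR). Chlorophyllase (Glyma.10G003200), which removes the phytol tail of chlorophyll, had 132, 135, 168 and 166 CPM at 17:00, against 70.8, 41.8, 61.3 and 44.2 CPM at 11:00 and rose (log2 fold change 1.49, SE 0.19, adjusted p = 3.50e-05, edgeR).

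Nitrate assimilation transcripts were lower late in the day. Nitrate reductase and nitrite reductase reduce nitrate to ammonium in 2 steps, and both nitrate reductase loci fell. Glyma.06G109200 had 341, 328, 334 and 216 CPM at 17:00, against 1468, 2282, 1826 and 1608 CPM at 11:00 (log2 fold change -2.62, SE 0.37, adjusted p = 8.95e-05, edgeR). Glyma.13G084000 averaged 1.44 ± 0.968 CPM at 17:00 and 11.8 ± 5.17 CPM at 11:00 (log2 fold change -3.26, SE 0.77, adjusted p = 0.0046, edgeR). Glyma.07G212800, matched to a nitrite and sulphite reductase, had 21.1, 8.71, 14.6 and 7.26 CPM at 17:00, against 113, 254, 156 and 56.1 CPM at 11:00, lower in every plot with no overlap (log2 fold change -3.54, SE 0.68, adjusted p = 0.00116, edgeR). Of the 11 nitrogen-related loci with a name in the part of the study's gene table used, 6 were lower and 2 higher, 72.7% of them (4 to 5 lower and 1 to 2 higher with 1 plot left out). That part holds 931 genes, all chosen by the study for unusually high variation among plots, so its families are not a sample of all genes. Of the 931, 84 were higher and 86 lower, or 18.3%, against 17.4% of all genes. No list was tested as a set.

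Other nitrogen genes included L-asparaginase (Glyma.14G086300), which releases ammonium from asparagine, with 26.7, 95.9, 55.2 and 18.9 CPM at 17:00, against 191, 396, 187 and 94.7 CPM at 11:00 (log2 fold change -2.29, SE 0.25, adjusted p = 7.95e-06, edgeR). A transporter matched to nitrate and chloride carriers (Glyma.10G276700) ran the other way, with 63.4, 87, 114 and 342 CPM at 17:00, against 7.13, 6.84, 22.9 and 34.7 CPM at 11:00, a rise in all plots with no overlap (log2 fold change 3.08, SE 0.26, adjusted p = 5.50e-07, edgeR). The second rise, a molybdenum cofactor sulfurase match (Glyma.09G148400), averaged 1.44 ± 1.1 CPM at 17:00 and 0.396 ± 0.255 CPM at 11:00 and lost its call without plot 2 (adjusted p = 0.0534, edgeR) or plot 3 (adjusted p = 0.0522, edgeR). Asparagine synthetase loci did not agree: Glyma.14G195000 was at the threshold (log2 fold change -1.07, adjusted p = 0.04997, edgeR) and lost its call without any 1 plot (log2 fold change -1.47 to -0.40), and Glyma.02G228100 and Glyma.11G171400 did not pass, with log2 fold changes of -1.49 and 0.77. The remaining fall was a nitrate transporter match (Glyma.13G167700), which was under 3 CPM in all 8 libraries and lost its call without plot 1, 2 or 4 (adjusted p = 0.147, 0.0938 and 0.0584, edgeR).

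Thiamine thiazole synthase (Glyma.10G251500), which makes the thiazole part of vitamin B1, rose to a high level late in the day. It had 2312, 2388, 3556 and 4030.3 CPM at 17:00, against 106, 17.1, 177 and 37.1 CPM at 11:00. The 2 times were far apart in every plot (log2 fold change 5.53, SE 0.59, adjusted p = 6.91e-06, edgeR), and the 11:00 libraries were more spread, relative to their mean, than the 17:00 libraries. It averaged 19 CPM at 8:00 and 931 CPM at 14:00.

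**Figure D4:**
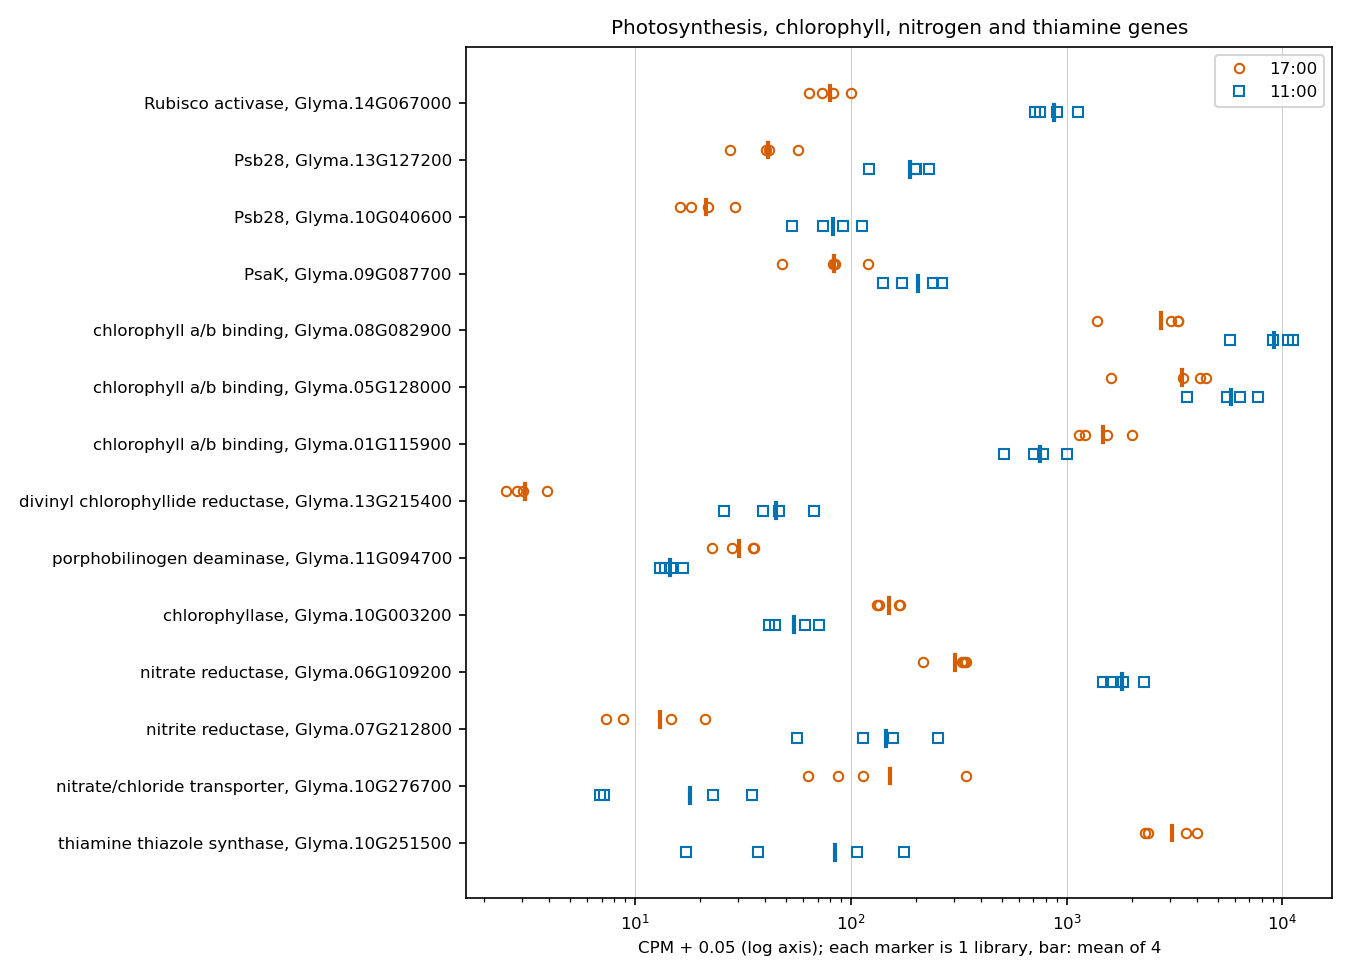
Genes run down the page, and CPM + 0.05 is on a log axis; circles are the 4 libraries of 17:00, drawn above the squares of the 4 libraries of 11:00, and bars are means. Rubisco activase, Psb28, PsaK, Glyma.08G082900, divinyl chlorophyllide reductase and nitrate and nitrite reductase lay lower at 17:00 with no overlap, and thiamine thiazole synthase, chlorophyllase, porphobilinogen deaminase, Glyma.01G115900 and the nitrate and chloride transporter lay higher; the times overlapped for Glyma.05G128000.

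All 6 hub genes of the study's regulatory network other than PRR5 fell, but the study selected them on these libraries. PIP5K (Glyma.03G186300), a lipid kinase of phosphoinositide signalling, had 2.04, 1.65, 2.68 and 2.24 CPM at 17:00, against 5.29, 4.84, 4.75 and 5.02 CPM at 11:00 (log2 fold change -1.20, SE 0.20, adjusted p = 0.000446, edgeR). The aquaporin PIP2;4 (Glyma.11G146500), a water channel of the plasma membrane, averaged 8.43 ± 2.94 CPM at 17:00 and 22 ± 10.7 CPM at 11:00 and was lower in all 4 plots although the groups overlapped (log2 fold change -1.31, SE 0.20, adjusted p = 0.000175, edgeR). The leucine-rich repeat gene LRRNT_2 (Glyma.20G143600) averaged 1.85 ± 0.232 CPM at 17:00 and 5.2 ± 1.15 CPM at 11:00 (log2 fold change -1.47, SE 0.23, adjusted p = 0.000197, edgeR). The YABBY transcription factor gene Glyma.17G138200 averaged 0.576 ± 0.37 CPM at 17:00 and 1.99 ± 1.12 CPM at 11:00 (log2 fold change -1.78, SE 0.32, adjusted p = 0.000692, edgeR). SHN2 (Glyma.17G210500), an ethylene-responsive transcription factor, averaged 0.0441 ± 0.0348 CPM at 17:00 and 0.789 ± 0.252 CPM at 11:00 (log2 fold change -4.02, SE 0.56, adjusted p = 8.44e-05, edgeR). PHNP (Glyma.02G176100), similar to ribonuclease Z, averaged 0.127 ± 0.0897 CPM at 17:00 and 0.916 ± 0.419 CPM at 11:00 (log2 fold change -2.74, SE 0.61, adjusted p = 0.00317, edgeR). The last 3 genes rest on few reads. PIP5K fell short of the fold threshold with total-count scaling (-0.92).

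Protease genes were among the abundant transcripts that rose. Of 28 loci matched to proteases, 8 were higher and 2 lower at 17:00, with a median log2 fold change of 0.61 (7 to 9 higher and 2 to 4 lower with 1 plot left out). Together 35.7% were called, against 17.4% of all genes and 18.3% of the 931. The cysteine proteinase match Glyma.15G177800 had 3302, 3188, 4011 and 10041 CPM at 17:00, against 1095, 727, 1039.6 and 2209 CPM at 11:00. It rose in each plot with no overlap (log2 fold change 1.99, SE 0.30, adjusted p = 0.000174, edgeR), and plot 4 was highest at both times. Glyma.09G069800, also matched to a cysteine proteinase, averaged 4003 ± 1764 CPM at 17:00 and 895 ± 293 CPM at 11:00 (log2 fold change 2.15, SE 0.31, adjusted p = 0.00012, edgeR). Vacuolar-processing enzymes, or asparaginyl endopeptidases, cut other vacuolar proteins after asparagine. Glyma.17G230700 had 658, 488, 672 and 5042 CPM at 17:00, against 141, 153, 251 and 452 CPM at 11:00 (log2 fold change 2.24, SE 0.31, adjusted p = 6.88e-05, edgeR). Glyma.14G092800 had 477, 315, 476 and 4905 CPM at 17:00, against 133, 117, 212 and 644 CPM at 11:00 (log2 fold change 1.92, SE 0.31, adjusted p = 0.000297, edgeR). For both, the plot 4 library at 17:00 held the largest share of the mean, and without plot 4 the log2 fold changes were 1.71 and 1.43, still called. A serine carboxypeptidase match (Glyma.13G029200) averaged 244 ± 124 CPM at 17:00 and 119 ± 66.2 CPM at 11:00 and lost its call without plot 4 (log2 fold change 0.93, adjusted p = 0.0584, edgeR). The other rises were of low abundance: the subtilisin-like proteases Glyma.18G250100 (8.98 ± 6.88 CPM at 17:00 and 1.4 ± 1.92 CPM at 11:00) and Glyma.07G080500 (1.95 ± 1.41 CPM at 17:00 and 0.255 ± 0.244 CPM at 11:00) and the aspartic proteinase Glyma.04G136000 (0.733 ± 0.556 CPM at 17:00 and 0.108 ± 0.0513 CPM at 11:00). Glyma.07G080500 and Glyma.04G136000 were not followed with a plot left out. Without plot as a block, 4 of the 28 were higher and 1 lower.

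The 2 proteases that fell were cysteine proteinase matches with low values in plot 4. Glyma.14G085600 had 964, 441, 412 and 61.3 CPM at 17:00, against 2029, 1736, 1934 and 459 CPM at 11:00 (log2 fold change -1.95, SE 0.39, adjusted p = 0.00147, edgeR), and Glyma.08G116900 averaged 30.4 ± 24.9 CPM at 17:00 and 66.3 ± 42.6 CPM at 11:00 (log2 fold change -1.36, SE 0.34, adjusted p = 0.00658, edgeR). The abundant vegetative storage proteins, which store nitrogen in soybean leaves, had lower values at 17:00 in all plots. Glyma.07G014500, matched to the stem 28 kDa glycoprotein, had 8190.3, 5016, 4224 and 571 CPM at 17:00, against 10159.9, 9354, 8394 and 1871 CPM at 11:00, which did not pass (log2 fold change -0.88, adjusted p = 0.089, edgeR). Glyma.08G200100, matched to the stem 31 kDa glycoprotein, averaged 1292 ± 920.4 CPM at 17:00 and 2549.6 ± 1343 CPM at 11:00 (log2 fold change -1.13, SE 0.38, adjusted p = 0.0334, edgeR) and lost its call without plot 2 (adjusted p = 0.0763, edgeR) or plot 3 (adjusted p = 0.102, edgeR). Among lipoxygenases, which oxidise polyunsaturated fatty acids, Glyma.07G034900 fell (157 ± 127 CPM at 17:00 and 694 ± 597 CPM at 11:00; log2 fold change -1.99, SE 0.30, adjusted p = 0.000137, edgeR). Glyma.07G006900, Glyma.07G034800 and Glyma.13G347800 did not pass, at -0.60, -0.55 and 1.04. In all, 2 of the 7 loci of storage proteins and lipoxygenases were lower and none was higher (1 to 2 lower with 1 plot left out, none without plot as a block, and 1 lower and 1 higher with total-count scaling). That is 28.6% called, against 17.4% of all genes and 18.3% of the 931.

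Ferritins, the iron-storing protein shells of plastids, varied widely among plots at both times. Of 5 loci, 3 were lower and 2 did not pass (1 to 3 lower with 1 plot left out, and none without plot as a block). The share called was 60%, against 17.4% of all genes and 18.3% of the 931. Glyma.07G155200 had 6.37, 4.35, 56.4 and 5.43 CPM at 17:00, against 14.1, 203, 214 and 14.1 CPM at 11:00 (log2 fold change -2.88, SE 0.75, adjusted p = 0.00862, edgeR). Plots 2 and 3 were high at 11:00 and plot 3 alone was high at 17:00, a pattern shared by Glyma.01G124500, Glyma.18G205800 and Glyma.03G050100. Glyma.01G124500 (log2 fold change -2.24, SE 0.68, adjusted p = 0.0204, edgeR) and Glyma.18G205800 (log2 fold change -2.28, SE 0.82, adjusted p = 0.0458, edgeR) lost their calls without plot 2 (adjusted p = 0.0997 and 0.203, edgeR) and without plot 3 (adjusted p = 0.0695 and 0.0993, edgeR). Glyma.03G050100 averaged 89.8 ± 131 CPM at 17:00 and 97.8 ± 105 CPM at 11:00 (adjusted p = 0.584, edgeR) and Glyma.02G262500 averaged 9.16 ± 9.91 CPM at 17:00 and 8.45 ± 3.81 CPM at 11:00 (adjusted p = 0.725, edgeR).

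Inositol oxygenase (Glyma.07G126600), the first step from myo-inositol to cell wall sugar precursors, had 16.9, 4.9, 4.21 and 1.0 CPM at 17:00, against 395, 189.8, 186 and 140.1 CPM at 11:00. It fell in every plot with a wide gap (log2 fold change -5.41, SE 0.51, adjusted p = 1.80e-06, edgeR). Of the 7 loci of inositol and galactinol metabolism, 3 were lower and none higher (1 to 4 lower with 1 plot left out, and 1 without plot as a block or with total-count scaling). These 3 make 42.9%, against 17.4% of all genes and 18.3% of the 931. Glyma.05G180600, matched to myo-inositol-1-phosphate synthase, averaged 544 ± 427 CPM at 17:00 and 1494 ± 993 CPM at 11:00 (log2 fold change -1.37, SE 0.44, adjusted p = 0.0265, edgeR) and lost its call without plot 1, 2 or 4 (adjusted p = 0.149, 0.102 and 0.056, edgeR). The galactinol synthase match Glyma.03G222000 averaged 8.28 ± 7.1 CPM at 17:00 and 19 ± 15.1 CPM at 11:00 (log2 fold change -1.38, SE 0.48, adjusted p = 0.0405, edgeR) and lost its call without plot 1 or 4 (adjusted p = 0.0918 and 0.113, edgeR). The inositol methyltransferase matches, Glyma.06G295700 and Glyma.12G109800, did not pass, with log2 fold changes of 0.30 and -0.84, although the second passed without plot 3 (-1.19).

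**Figure D5:**
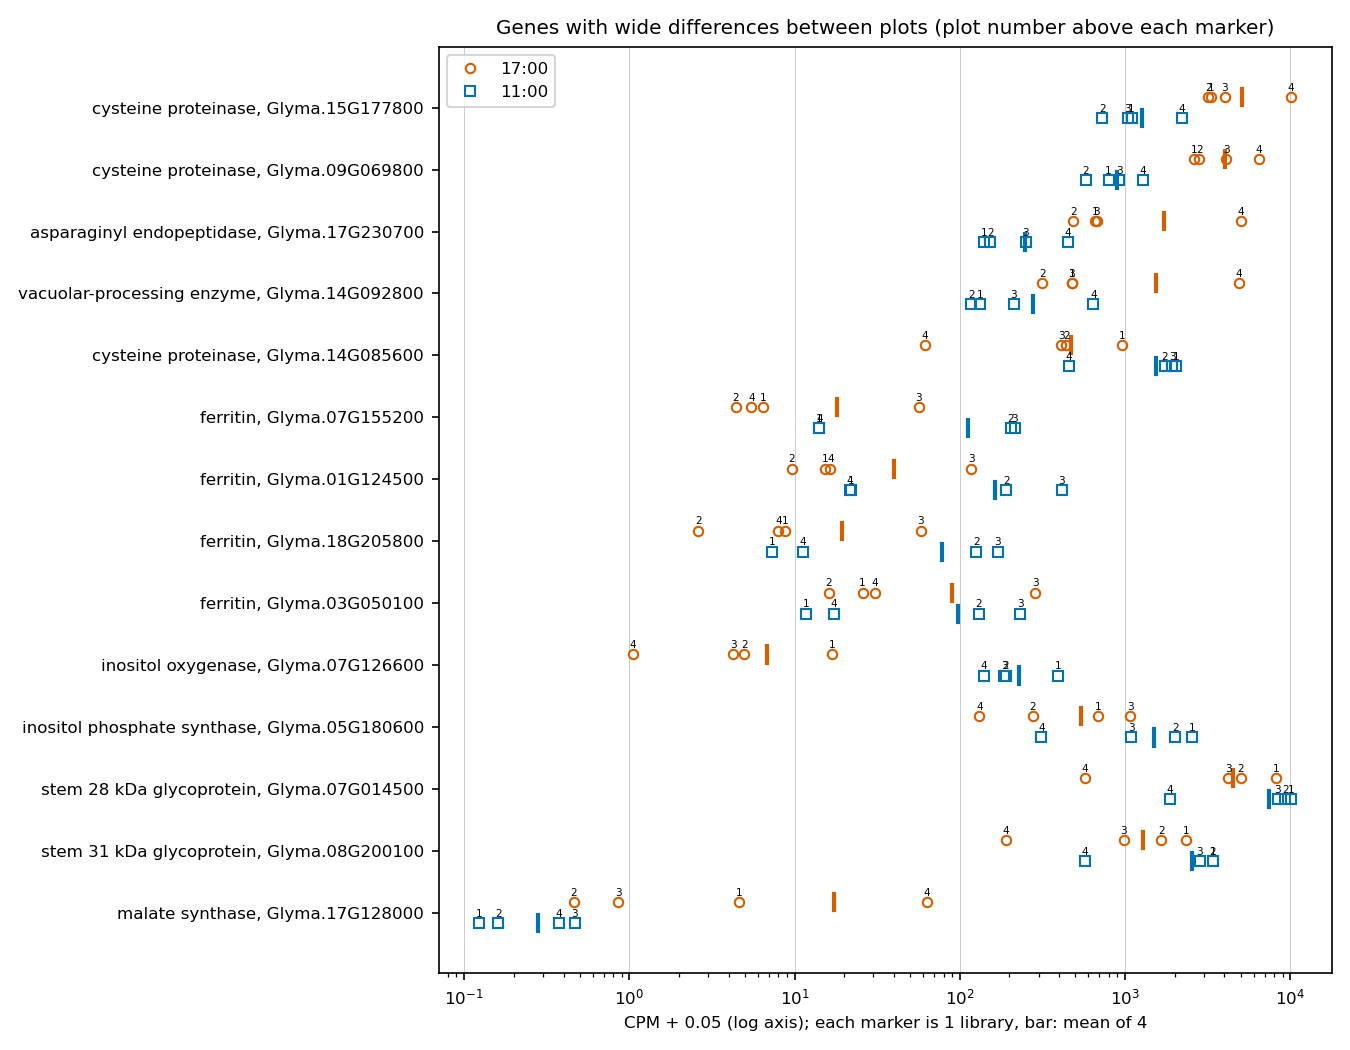
Genes run down the page, CPM + 0.05 is on a log axis, circles are 17:00 libraries above the squares of the 11:00 libraries, the digit at each marker is its plot and bars are means. Plot 4 was highest for the 4 proteases that rose and lowest for the storage glycoproteins and Glyma.14G085600, while plot 3 was highest for the ferritins at both times.

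Heat shock and chaperone matches changed in both directions, with 4 of 10 higher and 4 lower (2 to 4 higher and 3 to 4 lower with 1 plot left out, and 3 higher and 1 lower without plot as a block). In both directions together 80% were called, against 17.4% of all genes and 18.3% of the 931. Some of these calls rest on few reads. Glyma.11G105800, called higher, had 43 counts at 17:00 and 3 at 11:00 and was higher in 3 plots and lower in 1. Glyma.08G337100, called lower, had 21 counts at 17:00 and 61 at 11:00. A pair of dnaJ-type co-chaperones rose: Glyma.09G283400 averaged 224 ± 112 CPM at 17:00 and 28.2 ± 16.8 CPM at 11:00 (log2 fold change 3.16, SE 0.42, adjusted p = 4.65e-05, edgeR) and Glyma.07G197600 averaged 127 ± 47.7 CPM at 17:00 and 13.2 ± 5.64 CPM at 11:00 (log2 fold change 3.37, SE 0.36, adjusted p = 6.91e-06, edgeR). The falls included a cytosolic class II small heat shock protein (Glyma.06G054700; 0.346 ± 0.259 CPM at 17:00 and 5.16 ± 5.62 CPM at 11:00; log2 fold change -3.61, SE 0.61, adjusted p = 0.000416, edgeR) and the heat shock transcription factor HSFA6b (Glyma.10G029600; 0.594 ± 0.24 CPM at 17:00 and 2.5 ± 1.97 CPM at 11:00; log2 fold change -2.01, SE 0.55, adjusted p = 0.0118, edgeR). HSFA2 (Glyma.04G052000) had 5.42, 2.25, 7.45 and 3.93 CPM at 17:00, against 9.7, 4.34, 14.2 and 47 CPM at 11:00 (log2 fold change -1.57, SE 0.50, adjusted p = 0.0258, edgeR). Its highest value was the plot 4 library at 11:00, and it lost its call without plot 4 (log2 fold change -0.94, adjusted p = 0.185, edgeR) or plot 1 (adjusted p = 0.0523, edgeR).

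With TMM scaling, genes matched to enzymes of phenolic and triterpene compounds were lower where they changed. Of 15 such loci, 7 fell and none rose, with a median log2 fold change of -1.07. With 1 plot left out, 4 to 7 were lower and 0 to 1 higher, and without plot as a block 1 was lower. Total-count scaling gave 4 lower and 1 higher. The 7 are 46.7% of the loci, where 17.4% of all genes and 18.3% of the 931 were called. Beside the hydroxycinnamoyltransferase, the isoflavonoid malonyltransferase match Glyma.18G258000, of the isoflavone conjugates typical of legumes, had 54, 27, 45.6 and 2.97 CPM at 17:00, against 143, 183, 158 and 15.3 CPM at 11:00 (log2 fold change -1.99, SE 0.48, adjusted p = 0.00564, edgeR). Glyma.19G030800, matched to another isoflavone malonyltransferase, averaged 17.8 ± 15.8 CPM at 17:00 and 76.3 ± 52.1 CPM at 11:00 (log2 fold change -2.13, SE 0.61, adjusted p = 0.0149, edgeR) and lost its call without plot 2 (adjusted p = 0.0831, edgeR). The beta-amyrin 24-hydroxylase match Glyma.08G350800, of soyasapogenol synthesis, averaged 656 ± 342 CPM at 17:00 and 1571 ± 813 CPM at 11:00 (log2 fold change -1.25, SE 0.37, adjusted p = 0.0182, edgeR) and lost its call without plot 1 (adjusted p = 0.0541, edgeR) or plot 2 (adjusted p = 0.0957, edgeR). Matches to lupeol synthase (Glyma.20G192700, -1.65), a caffeic acid methyltransferase (Glyma.04G227700, -1.19) and a triterpene glucosyltransferase (Glyma.08G348500, -1.16) made up the other log2 falls, and in each of these plot 4 was lowest at both times. Their calls were not followed with a plot left out.

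Transcripts for sugar and organic acid metabolism included a beta-amylase match (Glyma.01G203400), of starch breakdown, with 241, 69.3, 153 and 394 CPM at 17:00, against 80.4, 29.6, 31.2 and 33.9 CPM at 11:00 (log2 fold change 2.16, SE 0.39, adjusted p = 0.000642, edgeR). A trehalose-6-phosphate synthase match (Glyma.13G092500), of sugar signalling, averaged 12.1 ± 11.3 CPM at 17:00 and 1.4 ± 1.98 CPM at 11:00 (log2 fold change 3.15, SE 0.70, adjusted p = 0.00311, edgeR). Plot 4 was its highest library at both times, and the log2 fold change was 3.99 without plot 4. The malate synthase match Glyma.17G128000 had 4.56, 0.412, 0.809 and 63.1 CPM at 17:00, against 0.0735, 0.111, 0.417 and 0.325 CPM at 11:00 (log2 fold change 5.10, SE 1.11, adjusted p = 0.0027, edgeR). All 4 plots were higher at 17:00, but 1 library, plot 4 at 17:00, held most of the counts, and the log2 fold change without plot 4 was 2.63 (adjusted p = 0.0493, edgeR).

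Of 42 cell wall loci, 3 were higher and 5 lower (2 to 3 higher and 3 to 6 lower with 1 plot left out, 2 and 2 without plot as a block, and 6 and 3 with total-count scaling), so that 19.05% were called, near the 17.4% of all genes and the 18.3% of the 931. Expansin A4 matches, which loosen walls in growing tissue, rose: Glyma.01G050100 had 67.5, 46.4, 104 and 14.5 CPM at 17:00, against 20.5, 23.5, 18 and 3.93 CPM at 11:00 (log2 fold change 1.81, SE 0.38, adjusted p = 0.00204, edgeR). The second, Glyma.02G109100, averaged 91.5 ± 74.6 CPM at 17:00 and 23.6 ± 13.6 CPM at 11:00 (log2 fold change 1.89, SE 0.53, adjusted p = 0.0137, edgeR) and lost its call without plot 1 (adjusted p = 0.0591, edgeR) or plot 3 (adjusted p = 0.0903, edgeR). A match to the invertase and pectin methylesterase inhibitor family (Glyma.12G004600) had 0.747, 3.3, 1.23 and 0.365 CPM at 17:00, against 47.8, 89.8, 45.8 and 25.7 CPM at 11:00 and fell (log2 fold change -5.40, SE 0.28, adjusted p = 8.25e-09, edgeR). The cellulose synthase match Glyma.06G324300 averaged 236 ± 151 CPM at 17:00 and 692 ± 413 CPM at 11:00 (log2 fold change -1.54, SE 0.51, adjusted p = 0.0301, edgeR) and lost its call without plot 1 (adjusted p = 0.0735, edgeR) or plot 2 (adjusted p = 0.114, edgeR).

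Among hormone-related matches, 4 of 29 auxin loci were higher and none lower (2 to 5 higher with 1 plot left out and 2 without plot as a block), and the 13.8% called is below the 17.4% of all genes. The auxin-repressed protein match Glyma.13G237000 had 74.9, 269, 194 and 396 CPM at 17:00, against 31.4, 44.1, 36.5 and 77.1 CPM at 11:00 (log2 fold change 2.17, SE 0.38, adjusted p = 0.00051, edgeR). A gibberellin 20-oxidase match (Glyma.07G168500), an enzyme of gibberellin synthesis, averaged 184 ± 156 CPM at 17:00 and 56.8 ± 34.8 CPM at 11:00 (log2 fold change 1.57, SE 0.24, adjusted p = 0.000168, edgeR). For this gene plot 4 was highest at both times. Of 10 gibberellin loci, 2 were higher and 1 lower, 30% of them, against 17.4% of all genes and 18.3% of the 931. With 1 plot left out, 1 to 2 were higher and 0 to 1 lower. None was lower without plot as a block or with total-count scaling. The fall was a match to gibberellin 2-beta-dioxygenase (Glyma.13G287600), which inactivates gibberellins, with 1.35 ± 1.39 CPM at 17:00 and 5.41 ± 5.71 CPM at 11:00. Dormancy and auxin associated protein Drm3 (Glyma.10G151000) averaged 58.4 ± 38.7 CPM at 17:00 and 13.4 ± 4.3 CPM at 11:00 (log2 fold change 1.92, SE 0.59, adjusted p = 0.0227, edgeR) and lost its call without plot 3 (adjusted p = 0.0913, edgeR) or plot 4 (adjusted p = 0.0726, edgeR). The ethylene-responsive factor match Glyma.10G194200 had 1.93, 5.09, 1.66 and 27.7 CPM at 17:00, against 0.441, 0, 0.0522 and 0.361 CPM at 11:00 (log2 fold change 5.07, SE 0.90, adjusted p = 0.00059, edgeR), and 4.16 without plot 4 (adjusted p = 0.0113, edgeR).

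Phosphate-related matches gave 1 rise and 4 falls of 15 (0 to 1 higher and 3 to 7 lower with 1 plot left out, and none higher and 1 lower without plot as a block). Rises and falls made 33.3%, against 17.4% of all genes and 18.3% of the 931. The SPX domain match Glyma.09G263400, of a family that senses phosphate status, had 0.825, 2.47, 2.13 and 0.913 CPM at 17:00, against 14.5, 18.7, 11.7 and 6.35 CPM at 11:00 and fell with no overlap (log2 fold change -3.11, SE 0.39, adjusted p = 3.03e-05, edgeR). The rise was an acid phosphatase match (Glyma.08G194900), with 4.52, 5.41, 4.55 and 52.1 CPM at 17:00, against 1.54, 0.945, 2.97 and 29.7 CPM at 11:00, which fell short of the fold threshold without plot 2 (0.92). Plot 4 was highest at both times, and without it the log2 fold change was 1.49 (adjusted p = 0.0119, edgeR), against 1.29 with all plots. The aquaporin PIP2 match Glyma.10G211000 had 126, 15.8, 91.1 and 76.4 CPM at 17:00, against 558, 297, 227 and 167 CPM at 11:00 (log2 fold change -2.12, SE 0.41, adjusted p = 0.00111, edgeR). Among 13 peroxidases 3 were higher and none lower, all of them at their highest in plot 1 at 17:00 and under 5 CPM in the other 7 libraries, and 0 to 3 were called with 1 plot left out and 1 without plot as a block. The 23.1% called lay near the shares of all genes and of the 931.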

How the data were processed

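Leaf RNA of 16 libraries (4 plots at 4 times) was sequenced as polyadenylated RNA. The authors used Trimmomatic for trimming, TopHat2 for alignment to the Williams 82 assembly and HTSeq for counting per gene. Each deposited table entry is an unnormalised read count for 1 gene. No source used here states the strand setting, the overlap setting or the lane of a library, so overlapping and near-identical genes are uncertain.

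Genes that reached 8 counts in any 1 library were kept (36059 of 56044, or 64.3%). Counts were scaled by TMM and fitted over all 16 libraries with time and plot in the model, using the quasi-likelihood test of edgeR 4.0.16 in R 4.3.3, and p-values were adjusted by Benjamini-Hochberg over all genes tested. Calls needed a log2 fold change (17:00 minus 11:00) of 1 or more in size with the adjusted p below 0.05. Values are TMM-scaled counts in units of 1000000 per library (CPM), and errors are SDs over 4 plots. The code was tested on simulated data. Intervals and floors cover counting error only. The p-values rest on the spread left over all 16 libraries once time and the plot differences shared by all times are taken out. Each plot gave 1 leaf at each time.

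The labels number the replicates, and per the study's methods each replicate was 1 plot with its own sampling day. Deviations of same-numbered libraries at 17:00 and 11:00 correlated across genes (r 0.17 to 0.44), against a median of -0.12 for different plots. The deviations were taken from the mean of the 4 plots, so positive r within plots makes r between plots negative. The -0.12 is thus no independent baseline. Plot 2 had r 0.17 with itself, against 0.16 for plot 3 at 17:00 with plot 2 at 11:00. Plot was kept as a block because the study sampled each plot at every time. Genes were named in 4 ways: every clock and hub locus; the 10 largest rises and falls among called genes of at least 10 CPM; up to 4 members of each other list, by size of change and level; and loci the study names. Other named members were chosen after their values were seen. Members and lists were chosen with earlier results of these data known. Gene names come from the study's text and its gene table, of which 931 genes were used, all marked there for high variation among plots. No locus matched the reference table, so sequences, coordinates and markers of other cell types are not used here. Alternatives used a linear model fitted gene by gene, limma 3.58.1, DESeq2 1.42.0 (its size factors and its Wald test), other scaling and filters, and each plot left out.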

Additional observations from a re-analysis of the deposited data

Results flagged for a closer look

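In 228 groups of 4 libraries (the named genes of the report and its lists at each time), 30 groups (13.2%) had 1 library set apart from the other 3 by a gap above the critical value of Dixon's test at the 95% level. Chance gives about 1 in 20 for independent genes that were not chosen on their spread. Many of these genes came from the 931 chosen for high variation among plots, and some families varied together. The 1 in 20 is therefore no yardstick for the 13.2%. Of the 30 groups, 18 were in plot 4, 7 in plot 3, 5 in plot 1 and 0 in plot 2. Plot and sampling day cannot be told apart, and the part of either in these values was not tested.

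Plot 4 at 17:00 stood high for the vacuolar-processing enzyme Glyma.14G092800 (4905 CPM), the cysteine proteinase Glyma.15G177800 (10041 CPM), the asparaginyl endopeptidase Glyma.17G230700 (5042 CPM), malate synthase Glyma.17G128000 (63.1 CPM) and the ethylene-responsive factor Glyma.10G194200 (27.7 CPM). It stood high at 17:00 and at 11:00 for asparagine synthetase Glyma.14G195000 (40.5 and 50.9 CPM), gibberellin 20-oxidase Glyma.07G168500 (418 and 108 CPM), acid phosphatase Glyma.08G194900 (52.1 and 29.7 CPM) and trehalose-6-phosphate synthase Glyma.13G092500 (28.9 and 4.37 CPM). Plot 4 stood low at 17:00 for Jumonji (38.2 CPM), the chlorophyll a/b binding locus Glyma.08G082900 (1383 CPM), nitrate reductase Glyma.06G109200 (216 CPM) and lipoxygenase Glyma.07G006900 (787 CPM), and low at 11:00 for nitrate reductase Glyma.13G084000 (4.08 CPM).

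Plot 3 at 17:00 stood high for all 5 ferritins, Glyma.01G124500 (118 CPM), Glyma.03G050100 (287 CPM), Glyma.07G155200 (56.4 CPM), Glyma.18G205800 (57.8 CPM) and Glyma.02G262500 (23.9 CPM), and for the Rubisco large subunit binding proteins Glyma.11G195900 (358 CPM) and Glyma.15G250500 (260.0 CPM). Plot 1 at 11:00 stood high for coproporphyrinogen III oxidase Glyma.04G192800 (9.99 CPM), the subtilisin-like protease Glyma.18G250100 (4.26 CPM), the hydroxycinnamoyltransferase match Glyma.20G045800 (72.4 CPM) and beta-amylase Glyma.01G203400 (80.4 CPM), and plot 1 at 17:00 stood low for HSFA6b, Glyma.10G029600 (0.236 CPM).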

How the results depend on the processing

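No gene called at 17:00 against 11:00 was called in the opposite direction under any of the alternatives run, and, apart from the changes of threshold, each alternative kept 81.1% to 99.5% of the called genes. Total-count scaling called 5217 genes higher, dropping the fold threshold gave 6293 higher and 5724 lower, and raising the fold threshold to 2 on the log2 scale and lowering the adjusted p to 0.0001 gave 331 higher and 779 lower. With each plot left out, 2448 to 2947 genes were higher and 2983 to 3072 lower. Without plot as a replicate block, 2842 were higher and 2805 lower. Of 83 called genes among the 115 followed, 54 kept their call in every alternative. The fit without the block ended 23 of these calls, among them the vacuolar-processing enzyme Glyma.14G092800 (adjusted p = 0.0523, edgeR), the cysteine proteinase Glyma.14G085600 (adjusted p = 0.0714, edgeR), the YABBY gene Glyma.17G138200 (adjusted p = 0.0895, edgeR) and the isoflavonoid malonyltransferase Glyma.18G258000 (adjusted p = 0.0586, edgeR), and the cause was not tested. List counts moved by over 1.5 times in 102 of 768 comparisons.

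The genes whose log2 fold change turned its sign had not been called. PRR3 (Glyma.U034500) had -0.0087 with DESeq2 size factors, -0.068 with only the 8 libraries, -0.066 with limma and with the gene-wise model, -0.023 without the block and -0.46 to 0.45 with a plot left out. Total-count scaling gave 0.055 for Glyma.11G195900, 0.17 for Glyma.15G250500, 0.18 for Glyma.11G181100 and 0.072 for Glyma.02G262500 (0.13 without the block). With a plot left out, the ranges were -0.051 to 0.35 for PsbD, -0.45 to 0.044 for Glyma.15G250500, -0.024 to 0.17 for Glyma.20G019400, -0.12 to 0.26 for Glyma.16G165800, -0.17 to 0.22 for Glyma.08G074000, -0.24 to 0.033 for Glyma.11G181100, -0.028 to 0.42 for Glyma.10G249000, -1.12 to 0.59 for Glyma.03G050100, -0.83 to 0.28 for Glyma.02G262500, -1.17 to 0.19 for Glyma.08G138200 and -0.18 to 0.60 for Glyma.06G295700.

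The comparison has 1 leaf per plot and time, so leaf, plot and day cannot be told apart, and genes under about 1 CPM rest on few reads.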

Other observations

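Some genes of the lists had values that the report does not give. A match to a heat shock protein binding protein (Glyma.08G220000) had 28.4, 88.9, 39.9 and 124 CPM at 17:00, against 10.7, 5.34, 5.95 and 29.1 CPM at 11:00 (log2 fold change 2.31, SE 0.69, adjusted p = 0.0184, edgeR), with all 4 plots higher at 17:00. Auxin-induced protein 5NG4 (Glyma.13G077800) had 7.78, 2.75, 12.7 and 68.9 CPM at 17:00, against 2.64, 0.723, 1.62 and 12.6 CPM at 11:00 (log2 fold change 2.23, SE 0.36, adjusted p = 0.000291, edgeR), and plot 4 was highest at both times. A match to the beta subunit of polygalacturonase (Glyma.02G034700), of pectin breakdown, had 1.22, 2.25, 1.92 and 0.822 CPM at 17:00, against 9.11, 17.9, 4.43 and 3.79 CPM at 11:00 (log2 fold change -2.35, SE 0.35, adjusted p = 0.000153, edgeR), lower in all 4 plots with no overlap. A haloacid dehalogenase match (Glyma.08G195100) had 49.4, 7.61, 2.85 and 5.20 CPM at 17:00, against 129, 61.5, 9.28 and 55.3 CPM at 11:00 (log2 fold change -2.43, SE 0.50, adjusted p = 0.00178, edgeR), lower in each plot although plot 1 was highest at both times and the groups overlapped.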
